A study of Drosophila melanogaster with 7 samples.

Results

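The genes described here are 10 genes of Drosophila melanogaster with parts in the methylation of lysine 9 on histone H3 (H3K9). Their products write, bind or remove this methylation, guide the enzymes that do, or bind the reader protein HP1a. The members are Su(var)3-9, egg, G9a, wde, the gene of HP1a (FBgn0003607), HP1b, HP1c, Su(var)3-7, Su(var)2-10 and Kdm4A, and the list is not complete. They were chosen by name and function, with earlier results of these data known. They are 10 of 17753 genes counted by Gro-seq in hand-staged embryos of cycle 14. In Gro-seq, nuclei are isolated and RNA polymerases that are already engaged on the DNA extend their transcripts with labelled nucleotides, so that the purified RNA reads out transcription at the moment of collection. The comparison asks whether the genes of this pathway are transcribed differently in embryos of mothers depleted of H3K9 methyltransferases.

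The control group (ctr, 3 libraries) is labelled wildtype. By the sample descriptions it comes from the cross T180xNI746, and by the study's methods its line is a TRiP stock. The triple mutant group (TM, 4 libraries) comes from the cross NI762xNI746, so both crosses share the stock NI746. The labels do not give its genotype. By the methods, both parents of the triple mutant cross were homozygous knockouts for Su(var)3-9. If the labels name that cross, NI746 carries the knockout and the ctr mothers were heterozygous for it. By the methods, the TM mothers were homozygous knockouts for Su(var)3-9 and carried short hairpin RNAs (shRNAs) against dSetDB1, which is the product of egg, and against G9a. The shRNAs were driven by maternal tubulin Gal4 from the 2nd chromosome at late stages of oogenesis. The embryos were laid by these mothers after crosses with their siblings, were aged at 25 °C and were pooled for each library. Siblings of such parents are knockouts too, so the TM embryos would themselves be homozygous for the Su(var)3-9 knockout. The driver acts in the maternal germline, so the nascent counts of egg and G9a in embryos do not measure the maternal knockdown. The methods call the libraries biological replicates and say nothing more about how they were separated.

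H3K9 methylation marks heterochromatin, the condensed and largely silent part of the genome around centromeres and over transposons. SETDB1, Su(var)3-9 and G9a are SET-domain enzymes that place the mark, and HP1 proteins bind the methylated tail through a chromodomain and compact the chromatin. In the fly, much of the mark is built up while the embryo passes through its rapid nuclear cycles and switches on its own genome.

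The reads on genes numbered 18889493 to 22200059 per library, and the second table, which counts exons of genes together with repeats, held 29391697 to 35131766. Values are given as CPM, counts scaled to a common library size with TMM factors. Of the 8 markers of the cycle 14 embryo, slam, bnk, ftz, eve, sna and twi were between 211 and 5138 CPM in every library of the gene-body table. The other two were nullo, at 2.77 to 10.05 CPM in ctr and 4.05 to 69.1 CPM in TM, and Sry-alpha, with 0 counts in every library there and 254 to 737 CPM by exons. The maternal germline markers bcd, osk and nanos were at most 3.98 CPM in the gene-body table. By exons, nanos was at 10.7 to 15.4 CPM, bcd at 3.28 to 6.84 CPM and osk at most 1.27 CPM. The TM libraries were not alike. The gene slam, which is needed for the membranes that enclose the nuclei in cycle 14, had 1989 to 2817 CPM in ctr and 5138, 3346, 3237 and 1351 CPM in TM replicates 1 to 4. The genes nullo and bnk, which act in the same process, were also highest in TM replicate 1 and lowest in TM replicate 4 among the TM libraries. Within the TM group the range was 3.80-fold for slam and 17.1-fold for nullo, and its part in the results for the 10 genes was not tested.

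The locus of Su(var)3-9 limits what can be read for the gene that was knocked out. Su(var)3-9 (FBgn0263755, 3R, 15259864 to 15263458, minus strand, dm6) lies entirely inside eIF2gamma (FBgn0263740, 3R, 15257844 to 15263458, minus strand), which encodes a subunit of a translation initiation factor. Both genes begin at the same base and share exon 1 (15263282 to 15263458) and exon 2 (15262547 to 15262721). Then they part. Exon 3 of Su(var)3-9 (15259864 to 15261897) is 2034 bases long and codes for most of the protein. It lies within intron 2 of eIF2gamma (15259687 to 15262546) and takes up 71.1% of it. The splice junctions, read 5′ to 3′ on the transcribed strand with the last 15 bases of exon 2 in lower case and the first 15 bases of exon 3 in capitals, show what tells the mature RNAs apart.
Su(var)3-9, exon 2 to exon 3: tcacaatcaagctggAACGCTTGAGCGAAA
eIF2gamma, exon 2 to exon 3: tcacaatcaagctggGTTATGCCAACGCCA

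The lower-case parts are the same bases of the same exon, and the capitals are different exons. The study's qPCR primers show how RNA of each gene can be measured apart from the other, with capitals again marking bases of exon 3 of Su(var)3-9.
Su(var)3-9 forward: agctggAACGCTTGAGCGAA
eIF2gamma forward: atgccaacgccaaaatctaca
The forward primer for Su(var)3-9 has its first 6 bases in the shared exon 2 and its other 14 in exon 3. It has 0 exact matches in the genome sequence, because an intron separates its parts. The forward primer for eIF2gamma lies in exon 3 of that gene (chr3R:15259663-15259683, minus strand), outside Su(var)3-9. Its reverse primer lies in the same exon, so this pair does not tell spliced from unspliced RNA of eIF2gamma. A nascent transcript of eIF2gamma that is not yet spliced also runs through exon 3 of Su(var)3-9. Neither table counts spliced RNA alone.

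**Figure D1:**
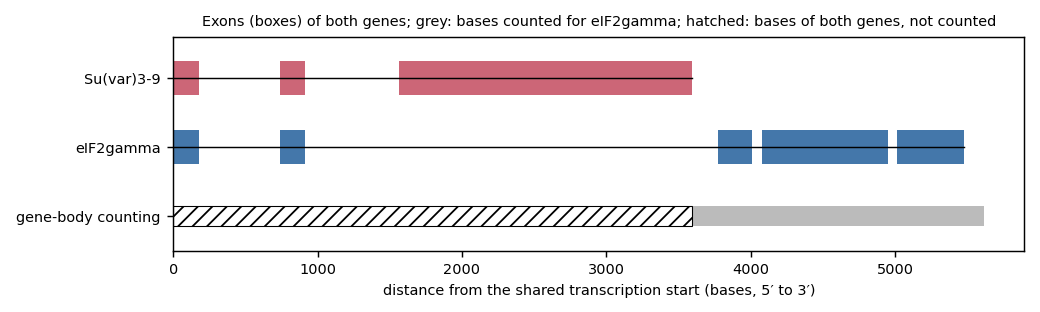
Exons of Su(var)3-9 and of the RB transcript of eIF2gamma as boxes, by distance in bases from the start they share, with the stretch that the gene-body table could assign below. The 2034-base exon 3 of Su(var)3-9 sits in an eIF2gamma intron, and 2020 bases at the 3′ end of eIF2gamma are free of Su(var)3-9.

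The gene-body table leaves out a read that lies on more than 1 gene, and there Su(var)3-9 had 0 counts in all 7 libraries. For this gene the 0 gives no upper limit on transcription, because 0 of its 3595 bases are free of eIF2gamma. For eIF2gamma itself only 2020 of its 5615 bases could be counted. By exons, the ctr libraries held 4757, 4572 and 4064 counts of Su(var)3-9, and TM replicates 1 to 4 held 4643, 4434, 3778 and 3818. In CPM these were 156, 138 and 135 in ctr and 131, 126, 122 and 119 in TM, so all TM libraries were lower than all ctr libraries, by a small margin. The log2 fold change was -0.20 (SE 0.084), with an adjusted p of 0.201 by edgeR's quasi-likelihood test. The neighbour eIF2gamma had a log2 fold change of -0.15 (SE 0.084, adjusted p = 0.372, edgeR) in the same table.

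The ratio of Su(var)3-9 to eIF2gamma exon counts was 1.11 ± 0.081 for ctr (SD, n = 3) and 1.07 ± 0.042 for TM (SD, n = 4). The groups overlapped, and the difference of -0.039 had p = 0.457 (exact permutation test, two-sided, 35 splits, smallest possible p 0.0286). The extent of the knocked-out stretch is not given in the sources used here, and reads of unspliced eIF2gamma fall on the same bases. These counts are therefore no check of the knockout.

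The levels of the 10 genes spanned a wide range. Per kilobase of gene body, the gene of HP1a had the highest level and egg the lowest. The gene of HP1a (2L, 8209626 to 8211122, minus strand), the main heterochromatin protein of the fly, stood at 132 CPM per kilobase as a mean over the 7 libraries. Its lowest library, at 126, was above the highest library of any other member, which was 65.4 for Su(var)2-10. This rank depends on the division by length. In CPM alone, the ctr mean was 203 for the gene of HP1a, 433 for wde and 373 for Su(var)2-10. The next levels were 56.8 CPM per kilobase for Su(var)2-10, 46.2 for wde and 38.2 for Su(var)3-7. The ranges of neighbours in this order overlapped over ctr and TM together. Within every single library, however, Su(var)2-10 was above wde and wde was above Su(var)3-7. A group of 3 genes followed with overlapping ranges: HP1c at 27.0, Kdm4A at 25.6 and HP1b at 24.8 CPM per kilobase. The methyltransferase genes G9a at 16.7 and egg at 8.01 CPM per kilobase were lowest, and the highest egg library (10.4) was below the lowest G9a library (13.5).

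Across the 9 genes the highest mean level was 16.5 times the lowest. Per kilobase of merged exons the same comparison gave 19.4 times. There Su(var)3-9 came second, at 55.6 CPM per kilobase, a level that includes whatever part of the eIF2gamma transcript was assigned to it. HP1b, HP1c and Kdm4A, which overlapped in both tables, stood in another order by exons.

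**Figure D2:**
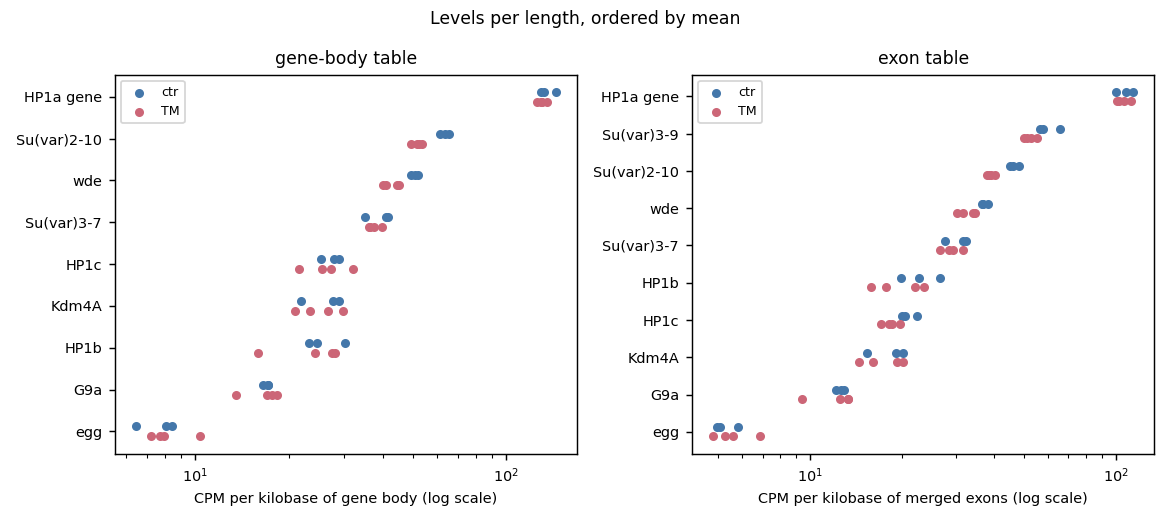
Level of each gene in each library, as CPM per kilobase of gene body (left) or of merged exons (right) on a log axis, with ctr in blue and TM in red, and genes ordered by their mean. The gene of HP1a is highest in both panels and egg lowest; the TM points of Su(var)2-10 and wde lie to the left of their ctr points.

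Between the groups, most of the pathway showed no difference that passed the test. Of the 9 members that passed the filter on low counts in the gene-body table, 1 changed: Su(var)2-10 fell. The other 8 had adjusted p-values between 0.0535 and 0.934. Over all 10917 genes tested in this table, 10.8% were called, 486 higher and 697 lower in TM, so 1 of 9 is near that background. The median log2 fold change was -0.06 over the 9 members and 0.03 over all genes tested. By exons, 0 of the 10 members were called by edgeR, against 5.9% of the 17281 genes and repeats tested. With DESeq2, which called 1514 features there against 1019 by edgeR, 1 member was called (Su(var)2-10). An unadjusted p under 0.05 was found for 3 members in the exon table and for 2 in the gene-body table, where the shares of all features were 19.2% and 24%.

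The enzymes that place the mark come first. The gene egg (FBgn0086908, 2R, 24775534 to 24779901, minus strand) encodes the fly SETDB1, which trimethylates H3K9. It had 28.0, 36.6 and 35.1 CPM in the ctr libraries and 31.5, 34.7, 33.7 and 45.2 CPM in the TM libraries. The groups overlapped, with the highest value in TM replicate 4. The log2 fold change was 0.13 (95% interval -0.24 to 0.49, adjusted p = 0.729, edgeR), and it was 0.0015 without TM replicate 4 and 0.016 without ctr replicate 1. An antisense gene, asRNA:CR44067, overlaps egg over 4191 bases on the other strand. The gene-body table counted the sense strand only, whereas the strand setting of the exon table, where the log2 fold change of egg was 0.09, is not given in the sources used here.

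G9a (FBgn0040372, X, 245978 to 254650, plus strand) encodes an enzyme that adds methyl groups to H3K9, mainly up to the dimethyl state in mammals. Its ctr libraries were tight, at 148, 143 and 148 CPM, and the TM libraries had 117, 147, 159 and 153 CPM. TM replicate 1 was below all others and TM replicates 3 and 4 were above all ctr libraries. The coefficient of variation was 1.92% in ctr and 12.9% in TM. The log2 fold change was -0.02 (95% interval -0.24 to 0.19, adjusted p = 0.930, edgeR), and without TM replicate 1 it was 0.06. The library with the lowest G9a level was the one with the highest slam level, and the part of stage within cycle 14 in this spread was not tested.

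The gene wde (windei, FBgn0027499, 2R, 10800420 to 10808938, minus strand) encodes the partner of SETDB1 that is related to mammalian ATF7IP and that SETDB1 needs for its function in the germline. It had 435, 420 and 444 CPM in ctr and 350, 379, 342 and 384 CPM in TM. All TM libraries were lower than all ctr libraries, a pattern that 12.5% of all genes tested shared, and 10.9% had the opposite one. The means were 433 ± 12.3 CPM (SD, n = 3) and 364 ± 20.7 CPM (SD, n = 4). The log2 fold change was -0.25 (SE 0.079) with an adjusted p of 0.0535 by edgeR, just short of the threshold of 0.05. The adjusted p was 0.00987 without TM replicate 4, the library with the lowest slam level, and 0.0259 with DESeq2. Over all alternatives it lay between 0.00987 and 0.175. The TM libraries were again all below ctr in the exon table, where the log2 fold change was -0.18 (adjusted p = 0.228, edgeR).

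The gene with the clearest difference was Su(var)2-10 (FBgn0003612, 2R, 9116122 to 9122000, plus strand). It encodes the PIAS-family SUMO ligase of the fly, which in ovaries links the piRNA pathway to SETDB1 and Wde by attaching SUMO at the target chromatin. Its levels were 374, 385 and 360 CPM in ctr and 316, 291, 303 and 307 CPM in TM. The gap between the lowest ctr and the highest TM library was wider than the spread within either group. The means were 373 ± 12.2 CPM (SD, n = 3) and 304 ± 10.5 CPM (SD, n = 4), a fold of 0.815. The log2 fold change was -0.29 (95% interval -0.46 to -0.13, adjusted p = 0.0196, edgeR).

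This call is close to the threshold. It was lost, by edgeR, without ctr replicate 1 (adjusted p = 0.0839), ctr replicate 2 (0.106), ctr replicate 3 (0.0504), TM replicate 2 (0.0760) or TM replicate 3 (0.0532), and with library totals in place of TMM factors (0.0576), while the log2 fold change stayed between -0.33 and -0.23 under every alternative. With TM replicates 2 and 3 alone, which leaves out the TM libraries with the highest and lowest slam, the log2 fold change was -0.33 (adjusted p = 0.00369, edgeR). That fit was chosen after seeing the data, so its p is no further support. The part of stage in the difference was not tested. By exons, Su(var)2-10 had 233, 244 and 228 CPM in ctr and 197, 191, 194 and 203 CPM in TM. There the log2 fold change was -0.26 (adjusted p = 0.0614, edgeR), with an adjusted p of 0.00908 by DESeq2.

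**Figure D3:**
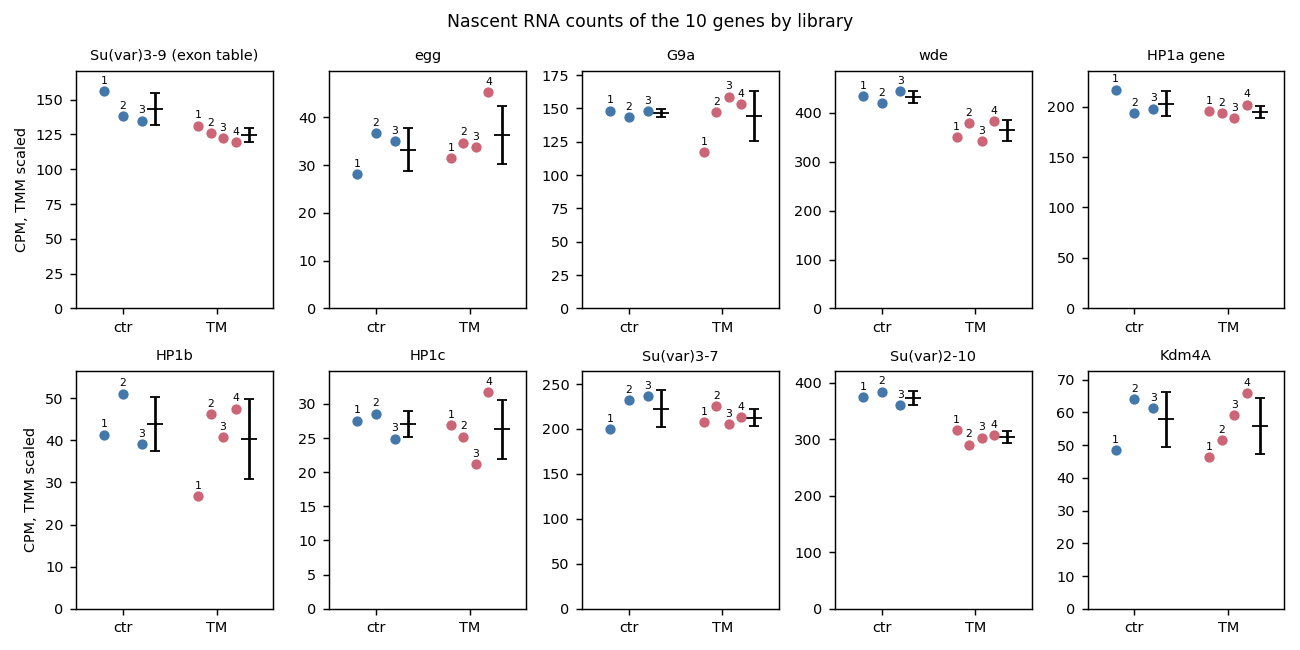
CPM of each gene in each library (points, with replicate numbers), with the mean and SD of each group beside them, from the gene-body table except for Su(var)3-9, which is from the exon table. The 4 TM points lie below the 3 ctr points for Su(var)3-9, wde and Su(var)2-10, and overlap the ctr points for the other genes; all axes start at 0.

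The genes of the HP1 proteins, which read the mark, were not called in either table. The gene of HP1a, highest of the 10 in counts per kilobase, had 217, 193 and 198 CPM in ctr and 195, 193, 188 and 202 CPM in TM. The groups overlapped, and the log2 fold change was -0.06 (95% interval -0.23 to 0.11, adjusted p = 0.733, edgeR). HP1b (FBgn0030082, X, 9081063 to 9082746) and HP1c (FBgn0039019, 3R, 22745620 to 22746605) encode HP1 proteins that are also found in euchromatin. HP1b had 41.4, 51.1 and 39.2 CPM in ctr and 26.7, 46.2, 40.8 and 47.5 CPM in TM. Its lowest library by far was again TM replicate 1, and its log2 fold change of -0.12 (95% interval -0.52 to 0.27, adjusted p = 0.758, edgeR) became 0.03 without it.

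HP1c had 27.6, 28.6 and 24.9 CPM in ctr and 26.9, 25.2, 21.2 and 31.7 CPM in TM in the gene-body table, where the groups overlapped. Its log2 fold change there was -0.04 (95% interval -0.44 to 0.35, adjusted p = 0.934, edgeR). By exons, all TM libraries of HP1c (18.2, 17.9, 16.8 and 19.4 CPM) were below the ctr libraries (20.2, 22.04 and 19.6 CPM), and the log2 fold change of -0.19 was not called (adjusted p = 0.585, edgeR). HP1c has 1 exon of 986 bases, which is its whole gene body, so both tables cover the same bases. The gene CG17141 overlaps it on the other strand over 160 bases, and the strand setting of the exon table is not given. The reason for the difference between the tables was not tested. Such a separation toward lower TM values was seen by exons for 4 of 10 members (Su(var)3-9, wde, HP1c and Su(var)2-10), against 9.95% of all features tested, and for 0 members toward higher values, against 9.04%. The members were chosen with results of these data known, so these counts carry no test.

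Su(var)3-7 (FBgn0003598, 3R, 13264364 to 13270038, plus strand) encodes a zinc finger protein that binds HP1a and spreads with it in heterochromatin. It had 200, 232 and 236 CPM in ctr and 208, 225, 205.01 and 213 CPM in TM, and its log2 fold change was -0.07 (95% interval -0.25 to 0.11, adjusted p = 0.703, edgeR). The gene TBC1D5 overlaps its 3′ end on the other strand over 902 bases. Kdm4A (FBgn0033233, 2R, 7922775 to 7924988, minus strand) encodes a demethylase that removes methyl groups from histone H3 and is bound by HP1a. It had 48.4, 64.0 and 61.3 CPM in ctr and 46.2, 51.6, 59.3 and 65.9 CPM in TM. The groups overlapped over almost their whole ranges, and the log2 fold change was -0.06 (95% interval -0.36 to 0.25, adjusted p = 0.870, edgeR).

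**Figure D4:**
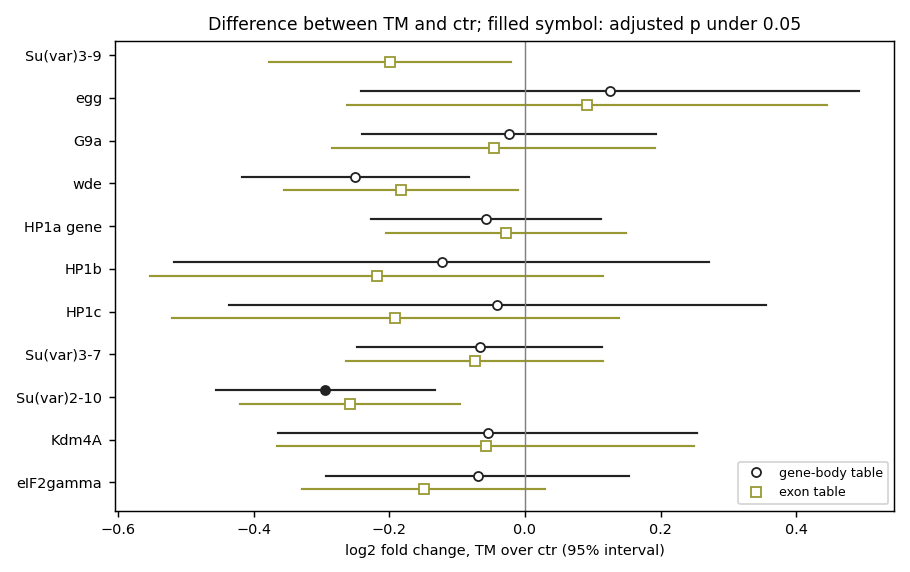
Log2 fold change of TM over ctr with its 95% interval for each gene and for eIF2gamma, from the gene-body table (circles) and the exon table (squares), filled where the adjusted p is under 0.05. Su(var)2-10 in the gene-body table is the filled symbol, at -0.29; the widest intervals belong to egg, HP1b, HP1c and Kdm4A.

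The directions of the small values should be read with their intervals. Over gene bodies, 8 of the 9 members had a negative log2 fold change, and with library totals in place of TMM factors G9a, the HP1a gene, HP1c and Kdm4A turned positive, at 0.04 or less. That scaling moves the median of all genes from 0.03 to 0.09. The intervals were narrowest for Su(var)2-10, wde, the HP1a gene and Su(var)3-7, and among those that include 0 the one of HP1b reached farthest, to -0.52.

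For each member, the gene with the most similar log2 CPM over the 7 libraries was looked up among the 3880 genes whose mean count was 1000 or more. The highest of so many correlations over 7 libraries can be high for any gene, and for the 9 members it lay between 0.931 and 0.996, so it sets no member apart. The 3 members with the highest values are given here. The log2 CPM of Su(var)2-10 followed that of Mob2, which encodes a kinase-binding Mob protein, with a Pearson r of 0.996 and a Spearman rho of 1. For wde the closest gene was pes (r = 0.992), a scavenger receptor gene. For G9a it was pre-rRNA:CR45847 (r = 0.986), one of many near-identical ribosomal RNA copies, so that its count is uncertain. For Su(var)2-10, 206 of 3879 genes had an r above 0.9, and for wde 129 did, whereas for G9a there were 21. These are descriptions over 7 libraries that share the difference between the groups.

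Further lists of genes were read beside the 10: HP1 partners, the SUMO pathway, and methyltransferases for other histone lysines. They had 3 of 17, 1 of 11 and 1 of 10 tested genes called in the gene-body table, where 10.8% of all genes were called; nothing is read from shares of lists this small. The calls in the lists were all lower in TM, and of the calls over all genes 697 were lower and 486 higher. Of 22 HP1 partners and other heterochromatin proteins, 17 were tested in the gene-body table, and 3 fell and 0 rose. They were stwl, a DNA-binding protein that maintains germline stem cells, at -0.67 (SE 0.12, adjusted p = 0.00129), vig, a component of the RNA interference complex, at -0.56 (SE 0.11, adjusted p = 0.00379), and JIL-1, the kinase that phosphorylates histone H3 next to lysine 9 and counters heterochromatin spreading, at -0.39 (SE 0.11, adjusted p = 0.0311, all by edgeR, as log2 fold changes). stwl went from 229 ± 10.04 CPM (SD, n = 3) to 144 ± 26.5 CPM (SD, n = 4). Its counts in TM replicates 1 to 4 were 3917, 3279, 2563 and 2295, falling in the same order as the slam levels. For vig they were 1952, 2609, 2262 and 2613, lowest in TM replicate 1. The part of stage in these values was not tested. The genes stwl, vig and JIL-1 were also called lower in the exon table. The highest value in this list was 0.41 for the demethylase gene Kdm4B (adjusted p = 0.310, edgeR). Kdm4B had 549 to 1470 counts per library in the gene-body table and 2536 to 3272 in the exon table, where its value was -0.11. The median of the list was -0.01.

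Of 11 genes of the SUMO pathway and of nuclear silencing upstream of egg, all 11 were tested in the gene-body table, and 1 fell and 0 rose. The gene that fell was Sumo itself, the modifier that Su(var)2-10 attaches. Its level was 177 ± 6.07 CPM for ctr (SD, n = 3) and 147 ± 4.33 CPM for TM (SD, n = 4), and the groups did not overlap. The log2 fold change was -0.27 (SE 0.079, adjusted p = 0.0382, edgeR). By exons the value was -0.27 as well, with an adjusted p of 0.0584. The E2 enzyme gene lwr was at -0.08 and the E1 subunit genes Aos1 and Uba2 at -0.25 and -0.12, none of them called. The highest value was 0.22 for mael, a piRNA pathway gene, and the median of the list was -0.09.

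Of 10 other histone lysine methyltransferases, all were tested in the gene-body table, and 1 fell and 0 rose. This was gpp, the fly Dot1 enzyme for lysine 79 of histone H3, which went from 511 ± 28.5 CPM (SD, n = 3) to 367 ± 17.5 CPM (SD, n = 4), a log2 fold change of -0.48 (SE 0.080, adjusted p = 0.000943, edgeR). It was also called lower in the exon table, at -0.35 (adjusted p = 0.0181). The highest value was 0.21 for trr, and the Polycomb enzyme gene E(z) was at 0.10, neither of them called. The median of the list was -0.08.

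**Figure D5:**
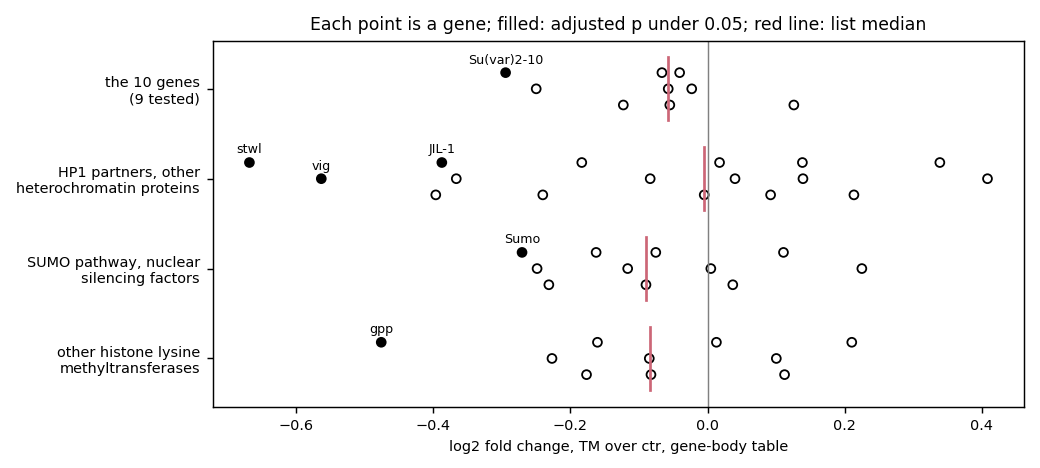
Log2 fold change of TM over ctr in the gene-body table for every tested gene of the 10 and of the 3 other lists, filled where the adjusted p is under 0.05, with a red line at each list's median. The filled points (Su(var)2-10, stwl, vig, JIL-1, Sumo and gpp) are all below 0 and the medians lie between -0.09 and -0.01.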

How the data were processed

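Nascent RNA of 3 ctr and 4 TM libraries was counted by the authors. Reads were trimmed with Cutadapt and mapped to dm6 with Bowtie2 2.3.3.1 in local mode, and alignments of mapping quality 3 or higher were kept. The gene-body table holds raw counts, deposited by the authors, of sense reads over whole gene bodies (featureCounts of Subread 1.5.3, annotation of Ensembl release 96). The exon table holds estimated counts, deposited by the authors, for genes and repeats (TEtranscripts through snakePipes), and its values were used as whole numbers. The authors tested with DESeq2, with the condition alone.

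Each table was fitted whole in edgeR 4.0.16 (R 4.3.3): TMM factors, features whose mean count was 10 or more, the robust quasi-likelihood test of TM against ctr, and Benjamini-Hochberg adjustment over all features tested, with a threshold of 0.05. Intervals cover 95%. On data simulated from the gene-body counts, the fit recovered 59.4% of 2-fold and 78.9% of 4-fold changes over 10621 genes, and 43.3% and 64.6% of those over 16652 features for the exon table. The changed features were drawn at random from all those tested, including features of low counts. These rates therefore do not describe the members, whose intervals show what could be seen for each. No removal of duplicate reads is described for these libraries, so counting error is a lower limit on the true error. The gene of HP1a is called by its protein. Gene names were matched by identifier for 17626 of 17753 genes. Coordinates of the 10 genes and of eIF2gamma are the same in the files and in RefSeq for release 6 of the genome, from which sequences were read. Primer sequences are from the study's primer list.

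Named genes are the 10 members, eIF2gamma, genes overlapping a member on its strand, the called genes and the highest and lowest value of each list, and the gene most alike over the 7 libraries for 3 members. The other genes of the SUMO list, E(z), and the opposite-strand neighbours were named after their values were seen. The members and lists were chosen with earlier results of these data known. The alternatives were DESeq2 1.42.0, its size factors, library totals, other count filters (none, or a mean of 100), a replicate block, leaving out each library, and adjusting over genes alone. A fit of TM replicates 2 and 3 alone against ctr was added after seeing the data. Proteins and promoters were not used here.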

Additional observations from a re-analysis of the deposited data

How the results depend on the processing

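In the gene-body table the number of members called was 1 and became 2 with DESeq2, 0 with library totals, 2 with the replicate block and 2 with TM replicates 2 and 3 alone, and lay between 0 and 2 when a library was left out. In the exon table it was 0 and became 1 with DESeq2, 1 with library totals, 1 with TM replicates 2 and 3 alone, and 0 to 1 when a library was left out. The genes called ranged from 688 to 1667 and the exon table features from 564 to 1396 when a library was left out, against 1183 and 1019. With DESeq2 1483 genes and 1514 exon table features were called, and with the replicate block 1526 and 1318. Library totals gave 1102 and 1022, and TM replicates 2 and 3 alone gave 1429 and 1158. The counts of members are to be read beside these totals and carry no test. With library totals the share of calls that were higher in TM moved from 41.1% to 55.7% in the gene-body table and from 47.8% to 35.2% in the exon table. Signs turned, for values that were never called, with library totals for G9a (0.0398), the HP1a gene (0.00464), HP1c (0.0240) and Kdm4A (0.00877) in the gene-body table, and with TM replicates 2 and 3 alone for G9a (0.0630 and, by exons, 0.0453) and for egg by exons (-0.0206).

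When a library was left out, the gene-body values ranged from -0.0730 to 0.0637 for G9a, from -0.212 to 0.0304 for HP1b, from -0.145 to 0.0481 for HP1c and from -0.170 to 0.0244 for Kdm4A. In the exon table they ranged from -0.0166 to 0.164 for egg, from -0.0958 to 0.0573 for G9a, from -0.0777 to 0.0167 for the HP1a gene and from -0.166 to 0.0219 for Kdm4A. The cause was not tested.

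The replicate numbers are shared by the groups, but libraries with the same number did not deviate together (correlations of 0.072, -0.087 and -0.018). With the replicate block 1526 genes and 1318 exon table features were called, wde passed the threshold in the gene-body table (adjusted p = 0.0230) and the value of egg in the exon table was -0.0161. With 7 libraries and these counts, the intervals of egg, HP1b, HP1c and Kdm4A were the widest and leave moderate changes undetected. No interval of a member reached farther than 0.553 from 0 in log2 fold change.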
